A study of Drosophila melanogaster with 8 samples.

Results

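The X chromosome carried 2080 of the 12319 peaks called for Distal-less (Dll) and 1480 of the 9850 peaks called for Sp1 in *Drosophila melanogaster* leg imaginal discs. A peak is a stretch of the genome where chromatin precipitated with an antibody gave more reads than input chromatin. The X peaks were chosen by the chromosome name in the peak lists, with no use of their height or length, and they were compared with the peaks on chromosome arms 2L, 3L and 3R. Dll was precipitated with anti-Dll from leg imaginal discs of *yw* larvae, and Sp1 was precipitated with anti-GFP from leg imaginal discs of Sp1-GFP (BAC) larvae. All larvae were wandering L3 (last instar) larvae. Each factor had 3 ChIP libraries and 1 input library of the matching genotype, from pools of 100 larvae with all 6 leg discs of each larva taken.

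Several features of these groups limit what an X peak can show. Peaks were called once per factor on merged libraries, so no peak has a value per replicate and no spread between replicates can be given. The methods speak of triplicate pools and also of merged duplicates, so which libraries entered each list is not clear, and the depth is unknown. Every interval below covers counting error only and treats neighbouring peaks as independent. Labels do not give the sex of the larvae. Males carry a single X, and fewer copies of X chromatin in a pool and weaker occupancy per copy cannot be told apart. The tagged Sp1 was supplied by a BAC transgene inserted outside its native place, and *Sp1* itself lies on X, so sequence of the *Sp1* locus was present in additional copies in the Sp1 chromatin but not in the Dll chromatin. The discs were not checked against marker genes, since peak lists hold no expression values.

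Dll is a homeodomain transcription factor required to form the distal part of the leg, and Sp1 is a zinc finger transcription factor that acts with its paralog Buttonhead (Btd) in leg formation and growth. Both act with the Wnt and BMP signals of the disc, through their nuclear effectors Pangolin (Pan) and Mad, on *cis*-regulatory modules (CRMs) of leg genes. ChIP-seq shows where a factor lies on chromatin in the pooled cells of a disc and does not show whether a bound stretch regulates its nearest gene.

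Sp1 peaks were sparser on X than on each of the other arms, and Dll peaks differed much less. There were 66.1 Sp1 peaks per Mb over the 22.4 Mb between the outermost X peaks, against 76.5 on 2L, 86.3 on 3L and 82.2 on 3R. Relative to 2L, 3L and 3R pooled, the Sp1 density of X was 0.809 (exact 95% interval of the ratio 0.764 to 0.856). For Dll, X had 93.0 peaks per Mb, against 92.8 on 2L, 107 on 3L and 96.2 on 3R. The corresponding ratio was 0.941 (0.896 to 0.988), and without 3L it was 0.982 (0.932 to 1.03), an interval that includes 1. Among these arms 3L therefore carried the lower Dll density of X. With 2R, at 105 Dll peaks per Mb, added after seeing the data, the ratio was 0.928 (0.884 to 0.973). X Sp1 peaks covered 1.07% of the span of X, where each of the compared arms had between 1.53% and 1.55% covered. For Dll the covered share was 3.53% on X and 4.05% on the pooled arms.

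**Figure D1:**
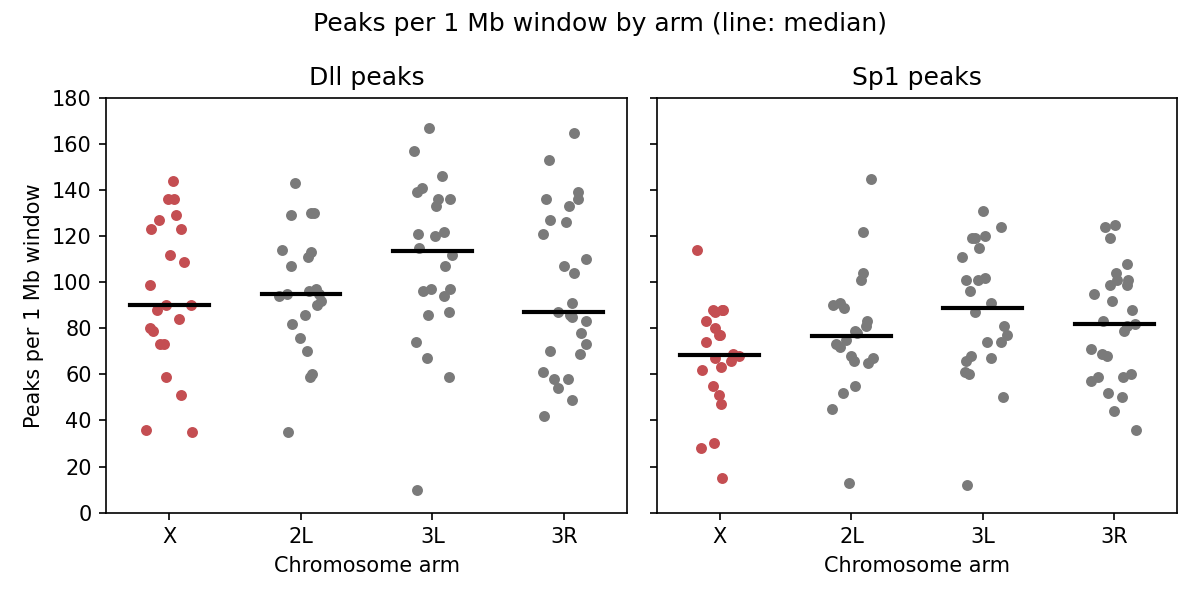
Number of Dll peaks (left) and Sp1 peaks (right) in each complete 1 Mb window, by chromosome arm. Each point is 1 window (22 on X, 73 on the other arms together) and the black line is the median of the arm. The X windows hold 35 to 144 Dll peaks and 15 to 114 Sp1 peaks, within the range of the other arms, with the lowest Sp1 median (68.5) of the 4 arms.

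The shortage of Sp1 peaks on X grew with peak length. X peaks of up to 100 bp had a density ratio of 0.934 (0.853 to 1.02), whose interval includes 1. The ratio was 0.828 (0.750 to 0.912) above 100 and up to 200 bp, 0.698 (0.610 to 0.796) above 200 and up to 400 bp, and 0.526 (0.408 to 0.672) above 400 and up to 800 bp. In that last class X had 76 peaks, or 3.40 per Mb, and the other arms had between 5.93 and 6.88 per Mb. Only 7 X peaks exceeded 800 bp, for a ratio of 0.327 (0.127 to 0.710). No X Sp1 peak was longer than 1 kb: 0 of 1480 allows a share of up to 0.203%, where 26 of 6161 peaks (0.422%) on the other arms were that long. These long peaks were spread over the compared arms, with 10 on 2L, 7 on 3L and 9 on 3R. The median length of X Sp1 peaks was 118 bp (95% interval 114 to 125, range 53 to 938) and that of the other arms was 133 bp (130 to 137).

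Dll peaks on X showed a shortage in the longer classes only. Up to 400 bp the ratio lay between 0.975 and 1.08 with intervals that include 1. Above 400 and up to 800 bp it was 0.800 (0.721 to 0.885), and above 800 bp it was 0.814 (0.697 to 0.947). The median Dll length on X was 275 bp (265 to 291, range 58 to 3578) against 302 bp (291 to 310), and the 2 intervals met at 291 bp. Against 2L alone the density above 800 bp was close, at 9.43 Dll peaks per Mb on X and 9.62 on 2L. In contrast to Sp1, 114 X Dll peaks (5.48%) were longer than 1 kb, against 5.16% on 2L, 5.91% on 3L and 7.86% on 3R.

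**Figure D2:**
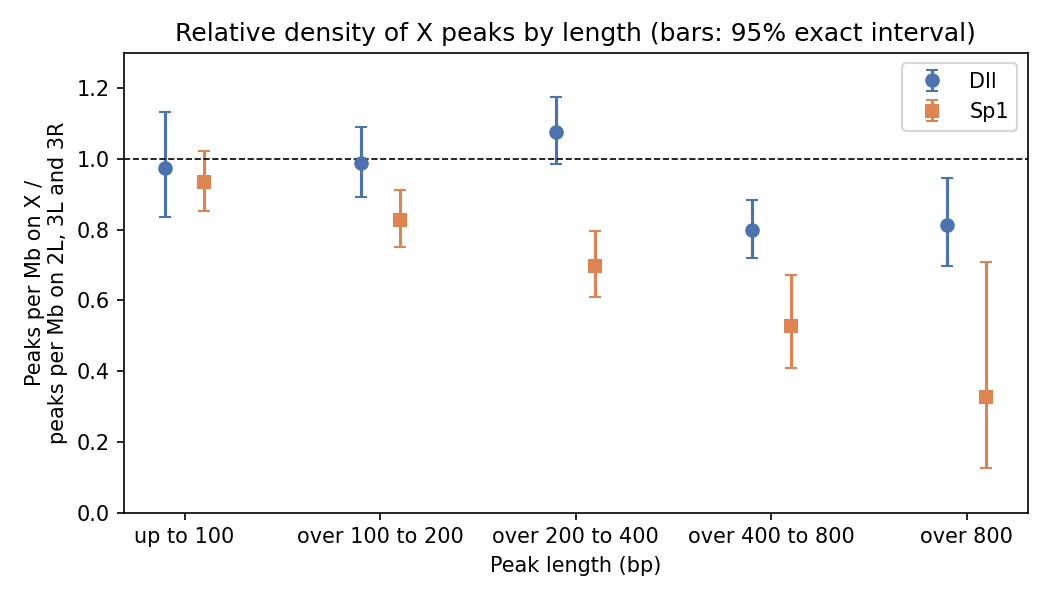
Density of X peaks relative to the pooled density of 2L, 3L and 3R, as a ratio of peaks per Mb on the vertical axis, in 5 classes of peak length in bp. Points are ratios (circles Dll, squares Sp1), bars are exact 95% intervals of counting error, and the dashed line marks equal density. The Sp1 ratio falls from 0.934 in the shortest class to 0.327 in the longest. For Dll the whole interval lies below the line only in the classes above 400 bp.

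Peak score, the deposited −log10 q value, gave a similar picture. Divided at the quartiles of the whole Sp1 list (5.05, 6.52 and 9.68), the lowest 3 quartiles of X Sp1 peaks had density ratios between 0.827 and 0.880. The highest quartile had a ratio of 0.677 (0.594 to 0.768), with 12.9 peaks per Mb on X and 18.9 to 19.2 on the other arms. Score and length come from the same signal, so these are not separate results. The median score was nevertheless close on X and elsewhere, at 6.45 and 6.51 for Sp1 and at 7.09 and 7.06 for Dll. The Dll quartiles had ratios from 0.904 to 0.981. X was also home to the highest Dll score of the whole list (60.31). Of the 10 highest peaks of each list, 4 Dll peaks and 1 Sp1 peak lay on X. Among the 100 highest, the numbers on X were 17 for Dll and 14 for Sp1, where X held 16.9% and 15.0% of the lists.

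Fewer X Dll peaks overlapped an Sp1 peak. An overlap of at least 1 bp was found for 43.1% of all Dll peaks and for 72.1% of all Sp1 peaks. On X it was found for 790 of 2080 Dll peaks, or 38.0% (Wilson 95% interval 35.9 to 40.1), and on the other arms for 45.2% (44.1 to 46.3), with 44.6% to 46.1% on the separate arms. The difference was −7.22 percentage points (Newcombe 95% interval −9.57 to −4.83). From the side of Sp1, 1044 of 1480 X peaks, or 70.5% (68.2 to 72.8), overlapped a Dll peak, against 73.5% (72.4 to 74.6). That difference of −2.97 points (−5.58 to −0.443) was small, and without 3L its interval included 0, at −2.12 points (−4.85 to 0.542). Arm 2R, outside the compared arms, also had a share of 70.5%, so a share this low was not particular to X. Since there were fewer and shorter Sp1 peaks on X to overlap, the lower Dll share and the lower Sp1 density are not separate measurements.

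Sharing rose with Dll score on X as elsewhere. In the lowest Dll score quartile 20.9% of X peaks overlapped Sp1, against 23.0% on the other arms. The shares were 23.4% and 31.2% in the second quartile, and 42.7% and 48.6% in the third. In the highest quartile they were 67.4% and 78.7%, a difference of −11.3 points (−15.9 to −6.91). The gap was therefore present among the strongest Dll peaks and was not confined to peaks near the threshold. X Dll peaks longer than 800 bp were shared in 77.3% of cases, against 86.9% elsewhere. For Sp1, the highest quartile was the one with a difference whose interval excluded 0, at 78.8% on X and 85.3% elsewhere (−6.46 points, −11.8 to −1.72).

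**Figure D3:**
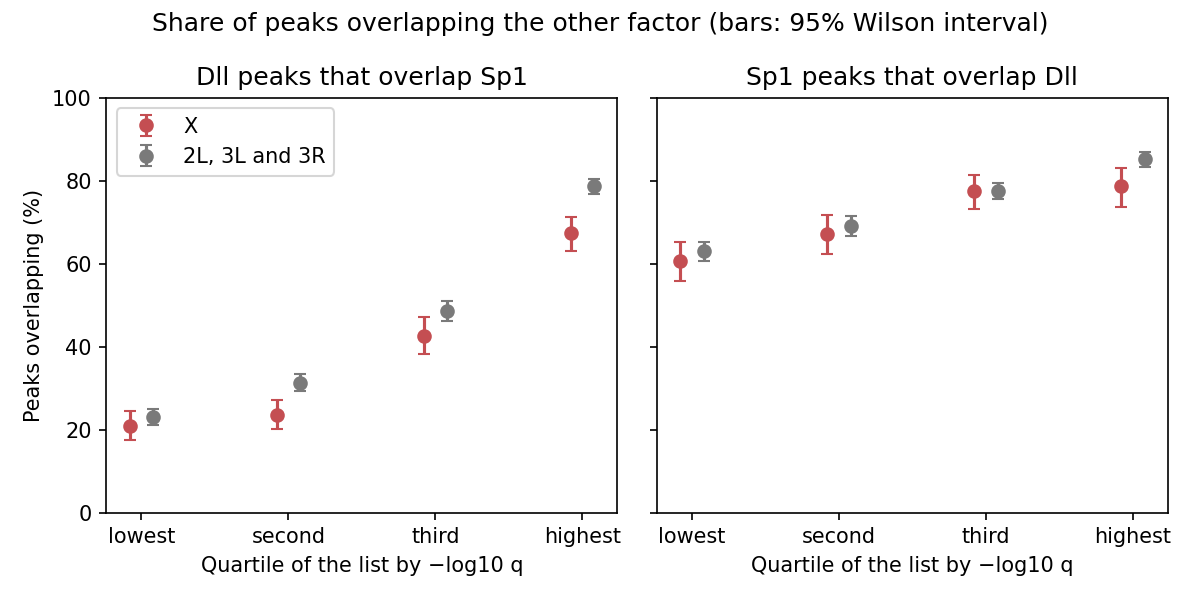
Share of Dll peaks that overlap an Sp1 peak (left) and of Sp1 peaks that overlap a Dll peak (right), in percent, by quartile of each list's −log10 q. Points are shares on X and on 2L, 3L and 3R pooled, and bars are Wilson 95% intervals of counting error. In the highest quartile the Dll share is 67.4% on X and 78.7% on the other arms, and the Sp1 share is 78.8% and 85.3%.

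Shared X peaks were the longer and higher ones. Shared Dll peaks had a median length of 429.5 bp and a median score of 10.12, and Dll peaks without Sp1 had medians of 222 bp and 5.98. For Sp1 the medians were 130 bp and 6.75 when shared, and 94 bp and 5.75 when not. Longer peaks have more room to overlap. Of the shared X Dll peaks, 598 held 1 Sp1 peak, 142 held 2 and 50 held 3 or more, up to 6. The reverse arrangement was rare, with 9 X Sp1 peaks that touched 2 Dll peaks. The 1290 unshared X Dll peaks lay at a median of 1572.5 bp from the nearest Sp1 peak, against 1141 bp on the other arms, and 28.1% of them lay within 500 bp, against 33.7%. Among the 436 unshared X Sp1 peaks, 10.1% were more than 20 kb from any Dll peak, against 6.07% elsewhere.

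The highest X Dll peak spanned chrX:12644269-12646346 (dm3, as are all positions here, printed as the lists give them). Its score of 60.31 was the highest of the Dll list, and it held 4 Sp1 peaks, the best with a score of 27.9. The nearest intersection region, defined below, was 13870 bp away, near *Smr*, which encodes a corepressor of the SMRT family. The next X Dll peak, chrX:5914863-5916825, was the 3rd of the list at 54.24. Sp1 peaks covered 74.7% of it, in 3 pieces, and it lay near *mab-21*, a member of a developmental gene family named from *Caenorhabditis elegans*. Then followed chrX:5640805-5641861 with a score of 49.19 and 2 Sp1 peaks. The peak at chrX:13435990-13437351 scored 47.19 and held 4 Sp1 peaks near *Cpr12A*, which encodes a cuticle protein. The fifth, chrX:13648565-13649988, scored 42.72 and held 2 Sp1 peaks. All 5 thus overlapped Sp1, though their best Sp1 scores ran from 5.25 to 29.82. They measured 1056 to 2077 bp, and 77.3% of all X Dll peaks longer than 800 bp overlapped Sp1, so overlap at these 5 was not unusual.

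The 5 highest X Sp1 peaks measured 245 to 365 bp, above the upper quartile of X Sp1 lengths (195 bp), and overlapped Dll peaks of lower score or none. The highest, chrX:13315184-13315429, had a score of 60.35, the 10th of the Sp1 list, over 245 bp. No Dll peak touched it, the nearest being at a distance of 7971 bp. The next 4 scored 52.64 (chrX:11900942-11901234), 47.2 (chrX:13151164-13151439), 46.11 (chrX:13022161-13022488) and 41.86 (chrX:5812772-5813137). Each overlapped 1 Dll peak, with Dll scores from 11.42 to 20.04, and the Dll peak covered 89.1% to 100% of it. None of these 5 Sp1 peaks held an intersection region.

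Length singled out other X peaks. The longest X Dll peak, chrX:17696953-17700531, ran over 3578 bp with a score of 37.03 and held 5 Sp1 peaks beside *OdsH*, which encodes a homeodomain protein. The second, chrX:17398776-17401367, ran over 2591 bp with a score of 17.01 and held no Sp1 peak, the nearest being 1009 bp away. The third, chrX:3635845-3638186, ran over 2341 bp with a score of 29.01 near *Tlk*, which encodes a Tousled-like kinase. It held 6 Sp1 peaks, the most of any X Dll peak. The longest X Sp1 peaks measured 938 bp (chrX:20122345-20123283), 925 bp (chrX:17455759-17456684) and 922 bp (chrX:1468145-1469067), with scores of 24.33, 40.82 and 18.93. The last lay near *Mur2B*, which encodes a mucin-related protein.

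Peaks were unevenly spread along X. The densest window for Dll was 3 to 4 Mb with 144 peaks and 77 Sp1 peaks. The densest window for Sp1 was 9 to 10 Mb with 114 Sp1 peaks and 123 Dll peaks, and 55.3% of the Dll peaks in it were shared, the highest share of the 22 X windows. That window holds *btd* and *Sp1*. The window from 21 to 22 Mb held the fewest of both, with 35 Dll and 15 Sp1 peaks. Windows rich in one factor were not always rich in overlap: from 13 to 14 Mb there were 136 Dll peaks and 25.7% of them were shared. Sp1 peaks outnumbered Dll peaks in 1 X window, 19 to 20 Mb, with 77 against 73. Across the 22 windows the counts of both lists moved together (Pearson's r 0.810, Spearman's coefficient 0.749). This is a description of windows that share libraries and gene density.

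The neighbouring paralogs *btd* and *Sp1*, with no protein-coding gene between them in the RefSeq gene order, lay in a stretch crowded with peaks of both lists. From 20 kb before the *btd* region to 20 kb past the *Sp1* region, a stretch of 76.8 kb, there were 51 Sp1 peaks (664 per Mb) and 42 Dll peaks (547 per Mb), of which 36 and 30 were shared. The scores of the 51 Sp1 peaks were mostly low, with a median of 6.04, and the highest was 33.2. The most Sp1 peaks in any X stretch of that size was 57, starting at chrX position 9598474, past the *btd* region and before the *Sp1* region. The highest numbers on other arms were 34 on 2L, 39 on 3L and 47 on 3R. For Dll the most on X was 46, starting at position 9598817, and the other arms reached 40, 48 and 47. The Dll list comes from *yw* larvae without the BAC, and its densest X stretch began at almost the same position as that of Sp1. The Dll maximum on X was below those of 3L and 3R, while the Sp1 maximum on X was above those of all compared arms. The additional copies of *Sp1* sequence in the Sp1-GFP (BAC) larvae are also present in the input library of that genotype, and their part in this Sp1 maximum was not tested. Without X from 9 to 10 Mb, an exclusion chosen after seeing the data, the Sp1 density ratio was 0.781 and the difference in Dll sharing was −8.31 points.

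Sites bound by both factors were described by their common stretches. A shared segment, the stretch common to 1 Dll peak and 1 Sp1 peak, occurred 1053 times on X, or 47.1 times per Mb, against 61.0 on the other arms. Their median length was 126 bp, against 143 bp. A subset of shared segments appears in a list of intersection regions compiled for the study: shared Dll and Sp1 chromatin that was also accessible by FAIRE-seq in leg discs and carried matches to the binding motifs of Dll, Sp1, Mad and Pan. As that list was chosen on these same peaks, it is no independent evidence about them. X held 63 of its regions, or 2.82 per Mb, against 4.35 on 2L, 3.47 on 3L and 3.66 on 3R, a ratio to the pooled arms of 0.739 (0.553 to 0.974). Without 2L the ratio was 0.788 (0.583 to 1.05) and its interval included 1. Among all shared segments 6.13% held a region. On X this share was 5.98% (4.70 to 7.58), and on the other arms it was 6.25% (5.59 to 6.99), a difference of −0.267 points (−1.74 to 1.46). X thus had fewer regions and fewer shared segments, and the share of segments that became regions was not distinguishable from that of the other arms at these counts.

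X segments with a region were longer and scored higher than those without. Each of the 63 X regions lay in exactly 1 shared segment and 54 spanned the whole segment, while 41 had the same bounds as the Sp1 peak and 1 the same as the Dll peak. Region segments had a median length of 344 bp, and the other X segments a median of 120 bp. Dll scores in regions ran from 4.95 to 54.24 with a median of 17.3, and Sp1 scores ran from 4.04 to 35.72 with a median of 12.56. Expressed as percentile ranks within each whole list, the Dll medians were 90.6 with a region and 74.8 without, and the Sp1 medians were 86.1 and 49.9. In 43 of the 63 regions the Dll peak had the higher rank. The matching count over all X segments was not made. The Dll median was also the higher one in X segments without a region (74.8 against 49.9), so this order was not particular to regions. A longer segment has more room for motif matches, and the part of length in these values was not tested.

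Both peaks stood in the top 10% of their lists in 47 X segments (4.46%, against 5.49% on the other arms), and 16 of these 47 held a region. Of the 5 X segments with the highest summed ranks, 2 held a region. The leading segment, chrX:5916272-5916778, had a Dll score of 54.24 and an Sp1 score of 29.82 and held none. It lay 55 bp from the next segment, chrX:5915343-5916217 (54.24 for Dll, 28.54 for Sp1), which held the *mab-21* region. The third, chrX:12644837-12645061, scored 60.31 and 27.9 and held no region. The fourth, chrX:17698584-17699308 at *OdsH*, scored 37.03 and 29.82. The fifth, chrX:9616087-9616412, scored 33.42 and 28.52 and lay 6577 bp from the *Sp1* region.

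**Figure D4:**
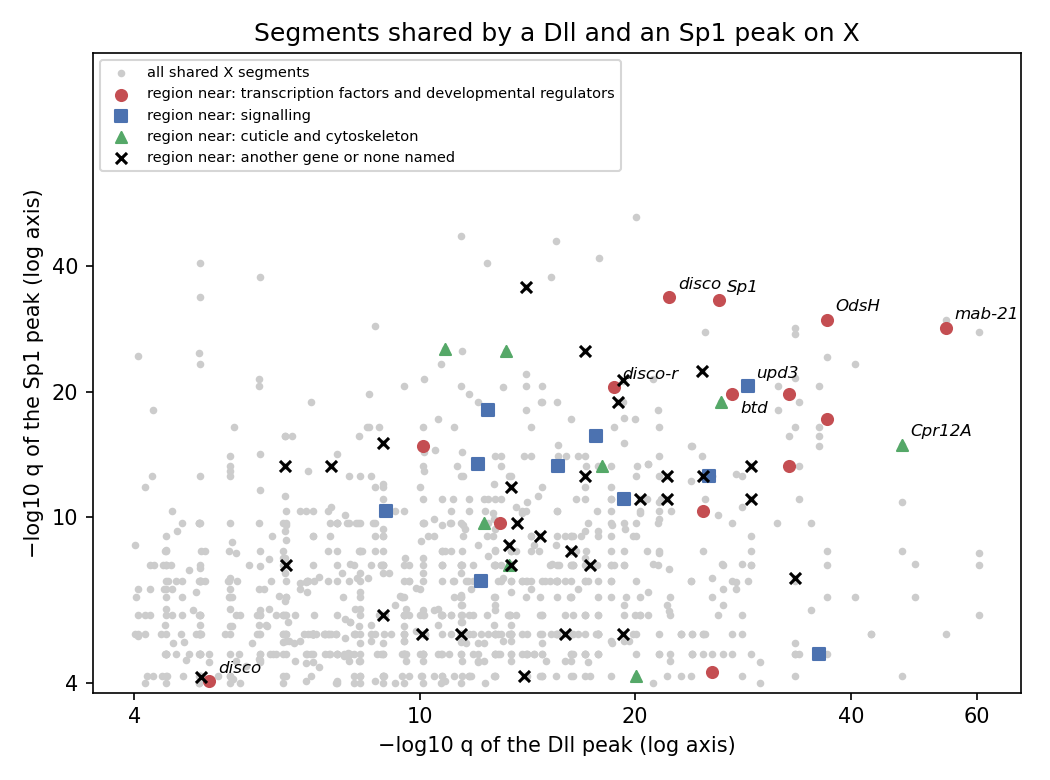
Dll score against Sp1 score (−log10 q, log axes) of the stretches shared by a Dll and an Sp1 peak on X. Grey points are all 1053 segments, and coloured or crossed symbols are the 63 with an intersection region, by the gene list of the nearest named gene. Regions reach 54.24 for Dll and 35.72 for Sp1 but also lie near the threshold of 4, as at 1 of the *disco* regions.

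The list named 47 genes for 61 of the X regions and none for the other 2. A named gene is a neighbour of the region and need not be its target. Transcription factors and developmental regulators accounted for 9 genes and 14 regions. Their Dll scores had a median of 25.91 and their Sp1 scores a median of 18.52, against 17.3 and 12.56 over all 63, and 8 of their 14 regions had both peaks in the top 10%, against 16 of 63. This list was drawn up with earlier results known, its 14 regions rest on 12 Dll peaks, and the 63 include them. The contrast therefore depends on which genes were listed. The highest pair after *mab-21* was that of *OdsH*, whose 2 regions shared the Dll peak with a score of 37.03 and had Sp1 scores of 29.82 and 17.26. Within 20 kb of the *OdsH* regions all 20 Sp1 peaks overlapped Dll, where 70.5% did over the whole of X. All Sp1 peaks overlapped Dll at most other genes with several regions too, as 17 of 17 did at *Tlk* and 18 of 18 at *Mur2B*. These windows were drawn around regions that are overlaps of both factors by definition. The whole of X is therefore not an even comparison for them, and these counts are a description only. The 8 Sp1 peaks at chrX:17698043-17701633, each within 500 bp of the next, formed the largest such group of X.

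The *ovo* gene, whose Shavenbaby isoform is a zinc finger transcription factor that directs the formation of trichomes, had the most X regions. Its 4 regions were spread over 20273 bp. The first 2 lay in 1 Dll peak at chrX:4919562-4920896 with a score of 32.82, and their Sp1 scores were 13.31 and 19.78. The other 2 had Dll scores of 24.83 and 25.64 and Sp1 scores of 10.38 and 4.26. In the surrounding 60.3 kb there were 28 Dll peaks and 11 Sp1 peaks. All 11 Sp1 peaks overlapped Dll and 7 of the Dll peaks overlapped Sp1, so Dll peaks outnumbered Sp1 peaks at *ovo*, where at *btd* and *Sp1* the reverse held.

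At *Sp1* the region lay in the Sp1 peak chrX:9622989-9623589 with a score of 33.2 and a Dll score of 26.18. The *btd* region, chrX:9586756-9586950, had 19.78 for Sp1 and 27.32 for Dll. Both genes thus carried a region bound by Dll and Sp1 with both peaks in the top 10%, and the *Sp1* region is subject to the additional copies described above. How far the BAC reaches toward *btd* was not determined, so the *btd* region may be subject to them too. The zinc finger genes *disco-r* and *disco*, paralogs that are also neighbours, differed among their regions. The *disco-r* region had a Dll score of 18.69 and an Sp1 score of 20.55. One *disco* region, chrX:16110842-16111642, had 22.33 and 33.73. The other *disco* region, chrX:16099784-16100027, was the weakest of the regulators, at 5.09 for Dll and 4.04 for Sp1, close to the threshold of both lists.

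Fragments cloned to test for enhancer activity included 2 on X, both named for *disco*. For *disco*, alone among the tested genes, the paper reported no leg disc enhancer biased along the proximal-distal axis. The fragment disco_In1 (940 bp) held the weak *disco* pair and 1 further Dll peak of 5.43. The fragment disco_In2 (1569 bp) lay at the *disco-r* region and held 2 Dll peaks, with scores of 18.69 and 14.84, and 4 Sp1 peaks with scores from 4.7 to 20.55. The Dll peaks covered 33.0% and 29.8% of it. Among the *disco* and *disco-r* regions, these fragments therefore sampled the weakest and the *disco-r* region, and the region with the Sp1 score of 33.73 lay in neither. The highest Sp1 peak within 20 kb of the *disco-r* region, chrX:16043111-16043430 with a score of 37.74, also lay outside both fragments. Of the remaining regulators, *CG9650*, named *Cph* in RefSeq and encoding a zinc finger protein, had 10.12 for Dll and 14.87 for Sp1. The region near *elav*, which encodes a neuronal RNA-binding protein rather than a transcription factor, had 12.97 and 9.68.

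Signalling genes accounted for 9 genes and 10 X regions, with a median Dll score of 16.61 and a median Sp1 score of 12.935. Both peaks were in the top 10% in 2 of the 10. The gene *upd3*, which encodes a ligand of the JAK/STAT pathway, had 2 regions, with Dll scores of 12.47 and 28.73 and Sp1 scores of 18.09 and 20.64. *Smr* had the most uneven pair of these genes, with 36.13 for Dll and 4.7 for Sp1. *fz3*, which encodes a member of the Frizzled family of Wnt receptors, had 17.63 and 15.65.

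In the remaining signalling genes the Dll score ran from 8.98 to 25.39. *boi*, which encodes a Hedgehog co-receptor, had a Dll score of 12.18 and an Sp1 score of 7.03. *Smox*, the Smad of the Activin branch, had 12.07 and 13.44. *CkIalpha*, a kinase of the Wnt and Hedgehog pathways, had 8.98 and 10.38, the lowest Dll score of the list. In the same order, the endocytic receptor gene *mgl* (Megalin) had 25.39 and 12.56. The cAMP phosphodiesterase gene *dnc* had 19.27 and 11.09, and the tyrosine phosphatase gene *Ptpmeg2* had 15.59 and 13.31. Components of several pathways thus had neighbouring X regions, and no pathway had more than a few.

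Genes of cuticle and cytoskeleton accounted for 6 genes and 8 regions, with a median Dll score of 15.665 and a median Sp1 score of 14.125. Both peaks were in the top 10% in 2 of the 8. The 2 *Cpr12A* regions were unlike each other: 1 had 47.19 for Dll and 14.94 for Sp1, and the other had 13.22 and 25.12. *Mur2B* had 26.34 and 18.93 at one region and 12.31 and 9.68 at the other. *Arp2*, which encodes a subunit of the actin-nucleating complex, had the lowest Dll score of the list (10.85) and the highest Sp1 score (25.38). *pot* (papillote), which encodes an apical matrix protein that attaches cells to cuticle, had 20.04 for Dll and the lowest Sp1 score of the list, 4.16. *pigs*, of the Gas2 family that links actin and microtubules, had 13.34 and 7.68.

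The other 23 genes had 29 regions with a median Dll score of 15.95 and a median Sp1 score of 9.68, and both peaks were in the top 10% in 3 of them. *Tlk* had 3 regions, with Dll scores of 7.53 at one and 29.01 at the other 2, which shared a Dll peak, and Sp1 scores between 11.09 and 13.31. *CG1677* had 3 regions within 2980 bp, with Dll scores of 22.18, 22.18 and 17.01. Their Sp1 scores were 11.09, 12.56 and 12.56. *CG11138*, named *Pits* in RefSeq, had 2 regions, with Dll scores of 24.83 and 14.71 and Sp1 scores of 12.56 and 9.01. *CG43658* also had 2, with Dll scores of 13.43 and 19.21 and Sp1 scores of 7.68 and 21.4. The highest Sp1 score of any X region, 35.72, was that of *CG16721*, with a Dll score of 14.09. The lowest Dll score, 4.95, was that of *RpL36*, which encodes a ribosomal protein.

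The last X region ended at position 19047811, and the 3.37 Mb from there to the last X peak held none. This stretch had 146 Dll peaks, 122 Sp1 peaks and 67 shared segments. No region in 67 segments allows a share of up to 4.48%, and 6.39% of the 986 X segments before that point held one. Of the Sp1 peaks past that point 54.9% overlapped Dll, against 71.9% before it, while the Dll shares were 36.3% and 38.1%. No segment past that point had both peaks in the top 10%. The point was set by the regions themselves, so these values are a description. Runs of segments without a region were also long elsewhere, up to 87 on 2L, 80 on 3L and 126 on 3R. The widest X gap between neighbouring Dll peaks, 371145 bp, lay in the same stretch (chrX:20527640-20898785), as did the widest gap between Sp1 peaks, 379110 bp (chrX:22036155-22415265).

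Neighbouring X peaks were often close. In the Dll list 49.0% of gaps between X peaks were at most 500 bp, as were 47.8% on the other arms, and joining such neighbours left 1062 stretches on X. For Sp1 the shares were 38.9% and 43.7%, and joining left 905 stretches. After joining, the Sp1 density ratio was still below 1, at 0.877. The largest group of X Dll peaks held 13 peaks, at chrX:12565749-12571556.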

How the data were processed

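ChIP-seq of Dll and of GFP-tagged Sp1 in leg discs had 3 ChIP libraries and 1 input library each. The authors aligned reads to dm3 with BWA and called peaks on merged ChIP reads against input with MACS2 2.0.9, at a p cutoff of 0.01 and then a q cutoff of 0.0001. The deposited lists give each peak's bounds and its −log10 q value, from 4 upward. Whether starts are counted from 0 or from 1 is not stated. They were read as counted from 0. Depth is unknown, and intervals cover counting error only.

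Comparisons were made with pandas 2.3.3, numpy 2.4.6 and scipy 1.17.1 under Python 3.11.15, and plots with matplotlib 3.10.9. An overlap is a stretch of at least 1 bp common to peaks of both lists. Density is the number of peaks per Mb between the outermost peaks of an arm. Density ratios have exact conditional 95% intervals, shares have Wilson intervals, differences of shares have Newcombe intervals and medians have order-statistic intervals. No p-value was computed, as no value per replicate exists. Values are given for the 5 highest and 3 longest X peaks of each list, the 5 X segments with the highest summed percentile ranks, genes with 2 or more X regions, genes in the 3 lists described (1 of them is not reported here), and windows with most or fewest peaks. Some further genes and windows (*CG16721*, *RpL36*, 13 to 14 Mb and 19 to 20 Mb) were chosen after their values were seen. The members and lists were chosen with earlier results of these data known. All 47 gene names near X regions were found on X in RefSeq (Release 6), 4 under another symbol, which was used for names and gene order only. In all, 14 alternative settings and 2 chosen after seeing the data were tried.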

Additional observations from a re-analysis of the deposited data

Results flagged for a closer look

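Peaks on the unplaced heterochromatic scaffold of X, XHet, entered no comparison. The Dll list had 4 peaks there, and their scores ran from 4.43 to 6.52. The Sp1 list also had 4 peaks on XHet, with scores from 5.83 to 7.05, and all 4 of each list overlapped the other.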

How the results depend on the processing

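No paired analysis was possible because the lists hold merged peaks with no value per replicate, and for the same reason no replicate could be left out. Of 94 values recomputed under 16 settings, 78 kept their side of the interval with no change of sign. These include the setting with starts counted from 1, which left every ratio and difference as it was. They also include Dll percentile rank differences that became 0. All alternatives kept side and sign for the Sp1 density ratio (0.693 to 0.877) and the Sp1 median length difference (−67.0 to −13.0 bp). So did those for the difference in Dll sharing (−9.58 to −4.78 points). The difference in the share of segments with a region, −0.267 points, changed sign to 1.41 points for segments of at least 200 bp, 4.53 points with both scores at least 10 and 0.273 points without 2L, always with an interval including 0. With scores of at least 10, the Dll density ratio was 0.952 with an interval including 1, and the Sp1 sharing difference was −1.73 points with an interval including 0. The Dll length difference at that setting was −72.5 bp with an interval excluding 0. There the Dll percentile rank difference turned from 1.12, with an interval including 0, to −2.87 (−4.87 to −1.27), an interval excluding 0. This rank difference was 0 without 3R and with 2R. With scores of at least 5 the Dll length difference was −45 bp, without 2L it was −29 bp and with 2R it was −28 bp, each with an interval excluding 0. Without 3L the Dll density ratio was 0.982 and the Sp1 sharing difference −2.12 points. That difference was −1.27 points for Sp1 peaks wholly within Dll peaks and −2.22 points with 2R, all with intervals including no difference. Without 2L the ratio of regions per Mb was 0.788. With 2R, a setting chosen after seeing the data, the Sp1 percentile rank difference was −1.92 (−8.59 to −1.19), an interval excluding 0, against −1.63 (−8.31 to 0). The causes were not tested. Merged lists of unknown depth limit all of these values.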
